A study of Mus musculus with 8 samples.

Results

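The genes described here are 8 transcription factors of naïve T cells, Tcf7, Lef1, Satb1, Foxo1, Foxo3, Foxp1, Ets1, and Myb. They were chosen by name from 29924 gene names on the arrays, were represented by 16 probes, and all 8 were among the 15763 genes tested. Their mRNA was measured on 8 one-color Agilent arrays of CD4 T cells from pLN of mice immunized s.c. with KLH in Alum. All cells came from the strain B6.Cg-Foxp3<tm1Mal>, in which Foxp3 expressing cells carry GFP. The mice were 8 to 14 weeks old and of mixed sex, and the cells of 8 to 15 mice were pooled for each sort. The sort gates were GFP-PD1-/loGL7- for naïve CD4 T cells, GFP-PD1hiGL7+ for TFH cells, GFP+PD1loGL7- for Treg cells, and GFP+PD1hi with or without GL7 for TFR cells. For every cell type there was 1 array of d12 and 1 of d25 post immunization, 2 arrays in all, and none had a replicate at a given day. The p-values thus measure how far differences between cell types varied from one day to the other. The naïve gate used no positive marker of naïve cells, so that the pool can contain other GFP-PD1lo cells. All d12 arrays lay on 1 slide, whereas the d25 arrays of naïve and TFH cells shared one further slide and those of Treg and TFR cells another.

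Tcf7 (TCF1) and Lef1 are closely related HMG box factors that bind DNA in T cell enhancers and can be turned into activators by β-catenin. Satb1 organizes chromatin loops in thymocytes and T cells. Foxo1, Foxo3, and Foxp1 are forkhead factors: AKT and SGK kinases exclude FOXO proteins from the nucleus, Foxo1 drives genes of lymph node homing and survival in resting T cells, and Foxp1 maintains their quiescence. Ets1 is the founding ETS family member, and Myb (c-MYB) is needed in lymphoid progenitors and is known to be re-expressed upon T cell activation.

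Between 18254 and 19867 probes were well above background per array. Sums of marker genes separated the sorted cell types as labeled, although Foxp3 (through GFP) and Pdcd1 (PD1) were themselves sort criteria. Foxp3 was at 66 to 358 RU (relative units of normalized intensity) in the GFP- and at 37266 to 49262 RU in the GFP+ cells. The summed intensity of Foxp3, Il2ra, Ikzf2, Lrrc32, and Ctla4 was 1276 to 1390 RU in naïve, 17943 to 20227 in TFH, 126903 to 129612 in Treg, and 110402 to 128087 in TFR cells. That of Bcl6, Cxcr5, Pdcd1, Icos, and Il21 was 24466 to 25287 in naïve, 654883 to 865931 in TFH, 45978 to 52367 in Treg, and 239291 to 303383 in TFR cells. Among the Treg markers, Ikzf2 and Ctla4 did not separate TFH from Treg cells. Ikzf2 was at 10506 and 10814 RU in TFH and 9925 and 11103 in Treg cells (d12 and d25). Ctla4 was at 7083 and 8995 RU in TFH and 8109 and 10125 in Treg cells. T cell markers summed to between 832480 and 1362979 RU on all arrays. Of 8 B cell markers, Pax5 lay at the floor of 20 RU on every array, while the sum was 5483 to 7330 in naïve, 7641 to 16043 in TFH, 9678 to 10062 in Treg, and 7723 to 8684 in TFR cells. Of the 5 tested, only Cd22 was called, higher in TFH versus naïve (1.60 ± 0.13, adjusted p = 0.00102) and TFR versus Treg cells (0.72 ± 0.13, adjusted p = 0.0137). In TFH cells, Cd79b was at 1043 and 6845, Ms4a1 at 246 and 2738, and Cd79a at 255 and 1822 RU (d12 and d25). The sum of the myeloid markers lay between 49423 and 62960 RU on all arrays, and Itgam and Cst3 made up most of it. Of this list, Cd14 was on no array well above background, whereas Lyz2 was at 352 to 449 RU in naïve, 461 to 1248 in TFH, 205 to 449 in Treg, and 379 to 1258 in TFR cells. Fcer1g was at 1668 to 2804 RU in naïve, 1243 to 2487 in TFH, 574 to 594 in Treg, and 1004 to 1380 in TFR cells. Neither gene was called in TFH versus naïve (adjusted p = 0.199 and 0.587) or TFR versus Treg cells (adjusted p = 0.13 and 0.114). The other myeloid markers tested were called in TFH versus naïve cells in both directions. Csf1r (-0.38 ± 0.113, adjusted p = 0.0452) and Itgam (-0.51 ± 0.116, adjusted p = 0.0208) were lower and Cst3 (0.43 ± 0.115, adjusted p = 0.0333) higher. None of the 5 tested was called in TFR versus Treg cells. Cd8a and Cd8b1 together were 4957 to 5118 in naïve, 4208 to 4565 in Treg, 2114 to 3174 in TFH, and 2110 to 2235 RU in TFR cells. The part of such cells in the results was not tested.

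The sequences that Lef1, Satb1, and Myb carry upstream of their first transcript start are shown because these genes fell most or rose in follicular cells. They are 250 bases of RefSeq sequence in build GRCm38.p6, read 5′ to 3′ on the strand of the gene: Lef1 at chr3:131110047-131110296 (plus strand), Satb1 at chr17:51833291-51833540 (minus strand), and Myb at chr10:21160985-21161234 (minus strand). Capitals mark 5-letter cores of the motifs bound by the same factor families on either strand, CTTTG for TCF/LEF, AAACA for forkhead, CGGAA for ETS, and AACTG for MYB.
Lef1: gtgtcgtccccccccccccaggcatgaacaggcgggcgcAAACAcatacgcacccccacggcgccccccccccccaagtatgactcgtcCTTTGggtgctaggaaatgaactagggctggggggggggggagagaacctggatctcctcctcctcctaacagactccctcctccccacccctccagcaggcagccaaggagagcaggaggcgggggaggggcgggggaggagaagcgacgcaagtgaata
Satb1: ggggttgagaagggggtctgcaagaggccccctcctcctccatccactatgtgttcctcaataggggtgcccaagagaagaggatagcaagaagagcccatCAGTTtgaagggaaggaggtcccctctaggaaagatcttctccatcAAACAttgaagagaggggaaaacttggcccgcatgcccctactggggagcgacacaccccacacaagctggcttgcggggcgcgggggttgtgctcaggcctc
Myb: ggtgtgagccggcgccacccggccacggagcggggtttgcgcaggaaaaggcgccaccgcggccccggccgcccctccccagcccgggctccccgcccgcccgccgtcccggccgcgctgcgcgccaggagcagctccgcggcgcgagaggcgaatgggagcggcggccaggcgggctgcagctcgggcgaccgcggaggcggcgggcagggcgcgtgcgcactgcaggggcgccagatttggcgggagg
Such short cores are common. Among 27025 genes with a window of this length, 48.8% held CTTTG, 46.7% AAACA, 25.4% CGGAA, and 39.1% AACTG. Of the 7 factors with a window (Ets1 has none here), 3 held CTTTG, 4 AAACA, 0 CGGAA, and 2 AACTG. The Lef1 window had AAACA starting 211 and CTTTG starting 161 bases upstream of the start, the Satb1 window had AACTG on the opposite strand at 149 and AAACA at 103 bases, and the windows of Myb and Tcf7 had no match. The Tcf7 window may hold coding sequence rather than a promoter. These are matches of letters and not binding sites.

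Compared with naïve CD4 T cells, TFH cells had 5 of the 8 factors called lower and 1 called higher, and TFR cells compared with Treg cells had 7 lower and 1 higher. Satb1 and Lef1 fell most in both lineages, Foxo1, Foxp1, and Ets1 fell less, and Myb rose. The 6 of 8 factors called in TFH versus naïve cells stand beside 46.5% of all genes tested, and the 8 of 8 in TFR versus Treg cells beside 39.6%. By direction, 25.6% of all genes were called lower and 20.9% higher in TFH versus naïve cells, and 20.9% lower and 18.7% higher in TFR versus Treg cells. The median log2 difference of the 8 factors was -0.63 in TFH versus naïve cells (all genes -0.072) and -0.80 in TFR versus Treg cells (all genes -0.077). A call means a Benjamini-Hochberg adjusted p below 0.05 in limma over all genes tested, and differences are given as log2 ± SE from this fit with 2 arrays per cell type. In pools of sorted cells, fewer cells expressing a gene and less RNA per cell cannot be told apart. The dot plot of log2 differences summarizes both comparisons.

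**Figure D1:**
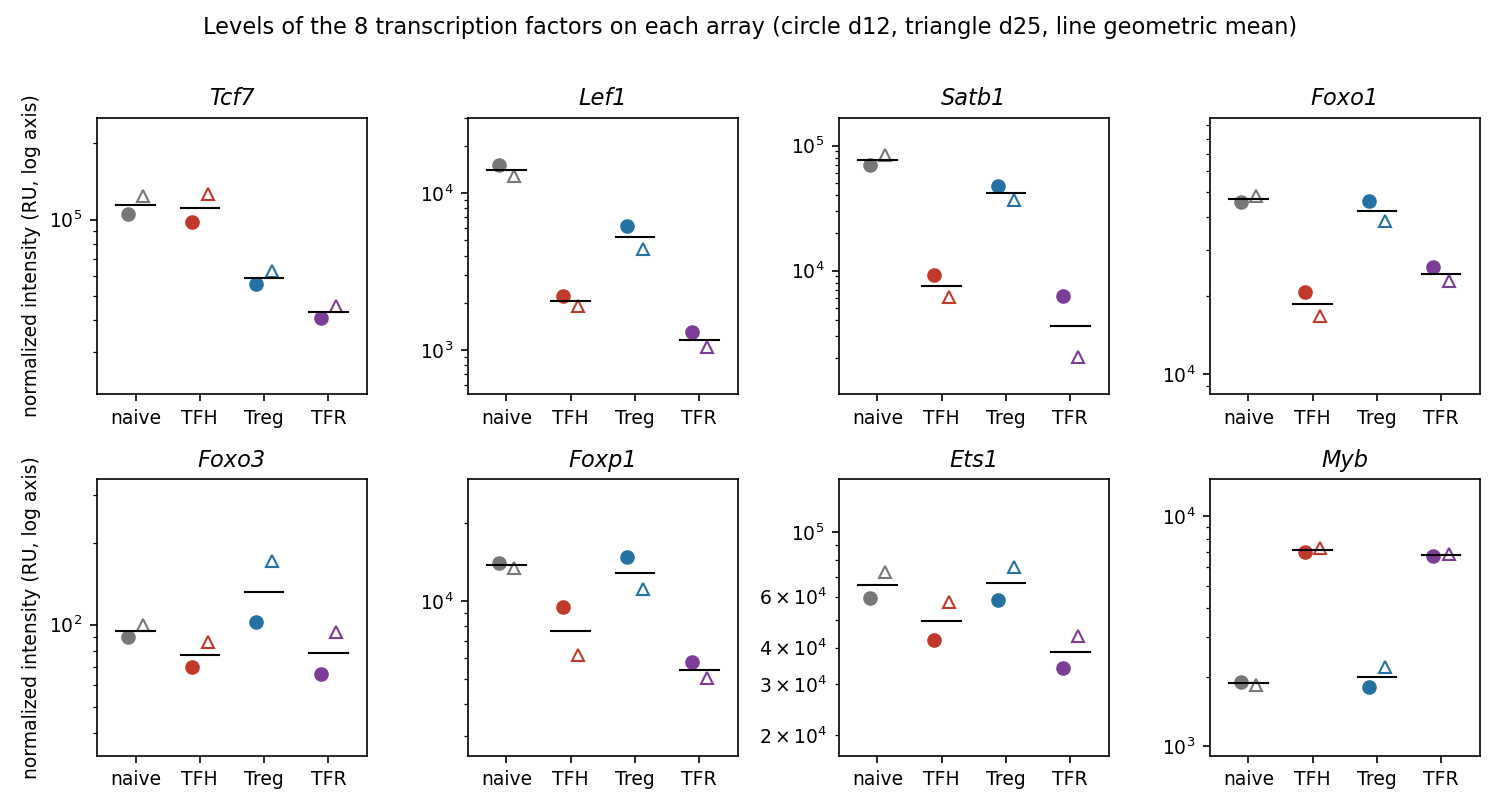
Normalized intensity (RU, log axis) of the brightest probe of each factor in the 4 cell types, with a circle for the d12 array, a triangle for the d25 array, and a line for their geometric mean. Lef1, Satb1, Foxo1, and Foxp1 were lower in both follicular cell types than in naïve and Treg cells on all arrays, Myb was higher, and Tcf7 was highest in naïve and TFH cells.

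**Figure D2:**
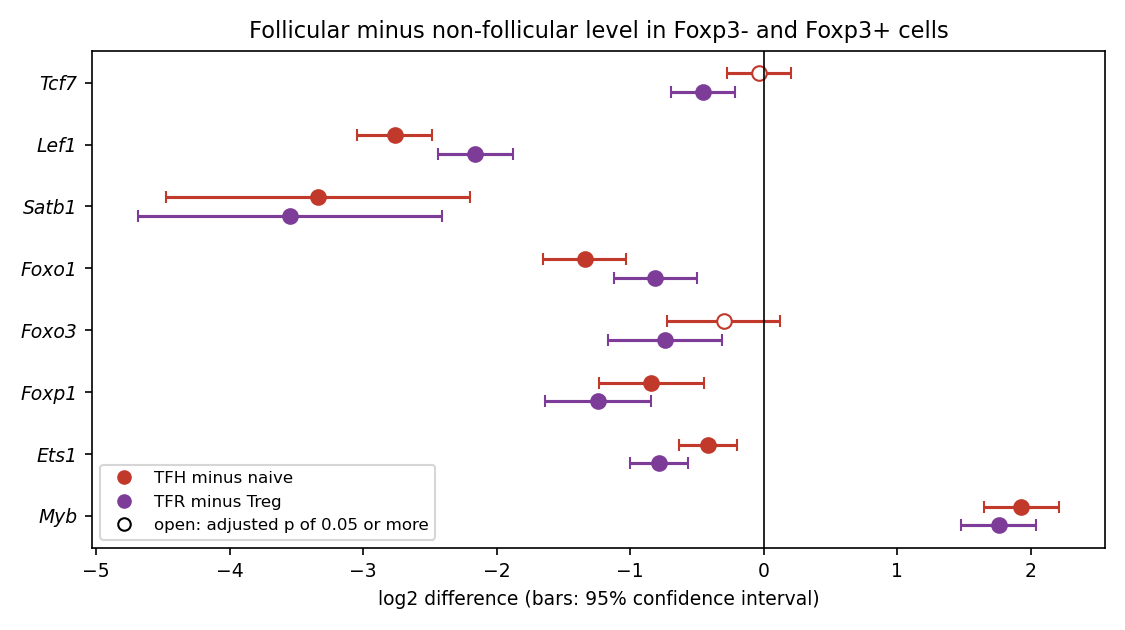
Log2 difference of TFH minus naïve cells (red) and of TFR minus Treg cells (violet) for the 8 factors, with 95% confidence intervals from limma and open circles where the adjusted p was 0.05 or more. All differences called are negative except those of Myb, and Tcf7 and Foxo3 were not called in TFH cells.

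Tcf7 had 105207 and 123337 RU in naïve cells (d12 and d25), 97736 and 126035 in TFH, 55426 and 62914 in Treg, and 40856 and 45494 in TFR cells. The values of naïve and TFH cells overlapped, those of Treg cells lay below both, and those of TFR cells were the lowest. Compared with Foxp3- cells of the same kind, Treg cells differed from naïve cells by -0.95 ± 0.093 (adjusted p = 0.0068) and TFR cells from TFH cells by -1.36 ± 0.093 (adjusted p = 0.00166). TFH and naïve cells differed by -0.038 ± 0.093 (adjusted p = 0.766), with a 95% confidence interval from -0.28 to 0.20. With scaling to the 75th percentile alone, without quantile normalization, Tcf7 was called lower in TFH cells (-0.33, adjusted p = 0.04), where the median of all genes was at -0.13. TFR and Treg cells differed by -0.45 ± 0.093 (adjusted p = 0.0191). This call was lost without any 1 of the 4 Treg and TFR arrays (-0.51 to -0.40) and without the term for day (adjusted p = 0.103). The call in Treg versus naïve cells was lost without any 1 of the 4 naïve and Treg arrays (adjusted p between 0.0571 and 0.0699) and with slide as a block (adjusted p = 0.0516). Within the d12 slide, the Treg minus naïve difference was -0.92 and the TFR minus TFH difference -1.26.

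The second probe of Tcf7 lies 5′ of the first on the minus strand of chromosome 11 (52066738 to 52066797 and 52066114 to 52066173 in NCBI37). It was at 15378 and 16454 RU in naïve, 10925 and 13954 in TFH, 6912 and 8991 in Treg, and 3902 and 4032 in TFR cells. Here, TFH cells lay below naïve cells at both days, with a difference of -0.37 ± 0.13 (adjusted p = 0.0685 in a fit of all 20237 probes). On this probe, TFR and Treg cells differed by -0.99 ± 0.13 (adjusted p = 0.00546) and Treg and naïve cells by -1.01 ± 0.13 (adjusted p = 0.014).

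Lef1 was at 15080 and 12898 RU in naïve, 6216 and 4384 in Treg, 2203 and 1916 in TFH, and 1305 and 1046 in TFR cells. No 2 cell types overlapped, and each step in this order was called. Lef1 fell by 2.76 ± 0.11 in TFH versus naïve cells (6.79-fold, adjusted p = 0.000188) and fell by 2.16 ± 0.11 in TFR versus Treg cells (4.47-fold, adjusted p = 0.00063). Treg and naïve cells differed by -1.418 ± 0.108 (adjusted p = 0.00335) and TFR and TFH cells by -0.81 ± 0.11 (adjusted p = 0.00939). The last call was lost without either TFR array (-0.82 and -0.81), without the term for day (adjusted p = 0.0602), and with slide as a block (adjusted p = 0.0515). The second probe, on the plus strand of chromosome 3 at 130926200 to 130926259, gave -2.74 ± 0.098 and -2.06 ± 0.098.

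Satb1 had the widest range of the 8 factors, 5.35 on the log2 scale. It was at 69546 and 83586 RU in naïve, 47945 and 36611 in Treg, 9293 and 6109 in TFH, and 6297 and 2044 in TFR cells. Naïve and Treg cells lay above all follicular arrays, while TFH and TFR cells overlapped. Satb1 fell by 3.34 ± 0.44 in TFH (10.1-fold, adjusted p = 0.00414) and fell by 3.55 ± 0.44 in TFR cells (11.7-fold, adjusted p = 0.00497), and the changes in both lineages differed by -0.21 ± 0.62 (adjusted p = 0.876). It had the largest SE of the 8 factors, with differences that were wider at d25. TFH minus naïve was -2.90 at d12 and -3.77 at d25, and TFR minus Treg was -2.93 at d12 and -4.16 at d25. From d12 to d25 Satb1 changed by 0.27 in naïve, -0.61 in TFH, -0.39 in Treg, and -1.62 in TFR cells, values of single arrays that were not tested by cell type. The study had already named Satb1 from these arrays, so that its direction is not independent evidence.

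The tested gene closest to Satb1 in pattern was C230085N15Rik. Its probe lies 17425 bases from the Satb1 probe on the same chromosome (chromosome 17, 51896622 to 51896681 against 51879137 to 51879196, NCBI37). It was at 11064 and 11887 RU in naïve, 5871 and 4513 in Treg, 1274 and 1165 in TFH, and 687 and 306 in TFR cells. Both probes shared the order of the cell types and the low d25 array of TFR cells. Whether they read separate transcripts was not tested. The root mean square difference of the centered log2 values was 0.24 over 8 arrays, against 0.44 for Rtn4rl1 and 0.55 for Gpr146, the next genes.

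**Figure D3:**
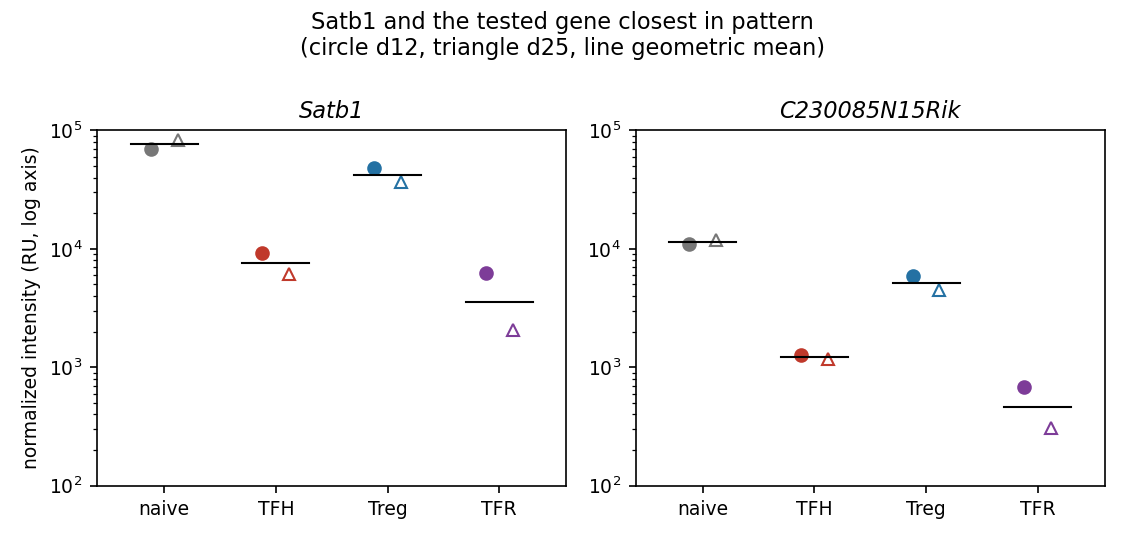
Normalized intensity (RU, log axis) of Satb1 and of C230085N15Rik in the 4 cell types, with a circle for d12, a triangle for d25, and a line for the geometric mean. In both, TFH and TFR arrays lay below naïve and Treg arrays and the d25 TFR array was the lowest.

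Foxo1 was at 45750 and 48092 RU in naïve, 46283 and 38779 in Treg, 25634 and 22704 in TFR, and 20554 and 16712 in TFH cells. Naïve and Treg cells overlapped, and both follicular cell types lay below them without overlapping each other. Foxo1 fell by 1.34 ± 0.12 in TFH (2.53-fold, adjusted p = 0.00132) and fell by 0.81 ± 0.12 in TFR cells (1.76-fold, adjusted p = 0.00781). The latter call was lost without either TFR array or the d12 Treg array (adjusted p between 0.0595 and 0.0611). TFR cells exceeded TFH cells by 0.38 ± 0.12 (adjusted p = 0.0858). Its second probe, on the plus strand of chromosome 3 at 52153289 to 52153348, fell 2.92-fold in TFH and 2-fold in TFR cells (adjusted p = 0.000661 and 0.00348).

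Foxo3 was dim, with 90 and 100 RU in naïve, 70 and 86 in TFH, 102 and 171 in Treg, and 66 and 94 in TFR cells. TFR cells overlapped with both naïve and TFH cells, whereas Treg cells lay above all others. It had 1 probe, which was well above background on all 8 arrays but with a median SD of 0.15 (log2) among its spots. It fell by 0.74 ± 0.16 in TFR versus Treg cells (adjusted p = 0.0238), a call lost without either TFR array or the d25 Treg array (adjusted p between 0.105 and 0.139), without the term for day (adjusted p = 0.118), and without the filter on dim probes (adjusted p = 0.0982). With normexp the difference was -0.29. TFH and naïve cells differed by -0.30 ± 0.16 (adjusted p = 0.193), with a 95% confidence interval from -0.73 to 0.12.

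Foxp1 was at 14040 and 13421 RU in naïve, 14763 and 11125 in Treg, 9453 and 6199 in TFH, and 5811 and 5045 in TFR cells on its brightest probe. The follicular arrays lay below all others. Foxp1 fell by 0.84 ± 0.15 in TFH (1.79-fold, adjusted p = 0.0108) and fell by 1.24 ± 0.15 in TFR cells (2.37-fold, adjusted p = 0.00481). Without the d25 naïve array, the TFH value was -0.67 and no longer called. The TFH value was not called without the filter on dim probes either (adjusted p = 0.0538).

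The 5 probes of Foxp1 did not change alike. The gene lies on the minus strand of chromosome 6, and RefSeq lists 3 start windows for it. The sequences of 3 of the probes are shown, since they carry this difference. The brightest probe (98880084 to 98880143 in NCBI37) starts at base 2369 of its transcript, the second downstream probe spans a splice junction (98885382 to 98889719) and starts at base 2110, and the upstream probe (99112925 to 99112984) starts at base 283. No base is marked.
Brightest probe: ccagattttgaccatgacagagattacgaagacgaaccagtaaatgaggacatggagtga
Second downstream probe: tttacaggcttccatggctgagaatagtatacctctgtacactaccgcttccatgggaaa
Upstream probe: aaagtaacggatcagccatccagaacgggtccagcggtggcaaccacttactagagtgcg
The upstream probe was at 978 and 805 RU in naïve, 655 and 621 in Treg, 73 and 84 in TFH, and 42 and 34 in TFR cells. It lay in the same order of cell types as the brightest probe, with far larger steps. It changed by -3.50 ± 0.15 in TFH cells (11.3-fold, adjusted p = 0.000238), against -0.84 for the brightest and -1.06 ± 0.15 for the second downstream probe. In TFR cells it was not well above background on either array. Its TFR values were therefore raised to the lowest level of any probe well above background on the same array. It was then 13.7-fold lower than in Treg cells (adjusted p = 0.000503 in the fit of the values as measured). That level does not bound the fold, which is uncertain. In TFR cells, the brightest probe fell 2.37-fold and the second downstream probe 2.41-fold. A middle probe (98956679 to 98956738) changed by -1.20 ± 0.34 and -1.62 ± 0.34, and no array showed the fifth probe well above background.

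The difference between a further probe and the brightest probe of its gene was fitted for 4470 probe pairs, a test added after the values of the probes had been seen. In TFH cells, the change of the upstream probe of Foxp1 differed from that of the brightest probe by -2.66 ± 0.27 (adjusted p = 0.0101). In TFR cells the difference was called too (adjusted p = 0.0143), but the upstream probe was not well above background there and its size in this fit is not given. Among all pairs, 8.28% and 5.88% were called, respectively. The other 6 pairs of the 8 factors were not called in either comparison. The TFH value was -3.17 at d12 and -2.15 at d25. With normexp background correction, which adds an offset of 50, the difference was -1.28 in TFH (adjusted p = 0.00682) and -0.78 in TFR cells (adjusted p = 0.0469). Why the TFH value was smaller with normexp was not tested. The call was lost in TFH cells without the d12 naïve array (-2.38, adjusted p = 0.0687), and in TFR cells without any 1 of the Treg and TFR arrays (adjusted p between 0.102 and 0.128).

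**Figure D4:**
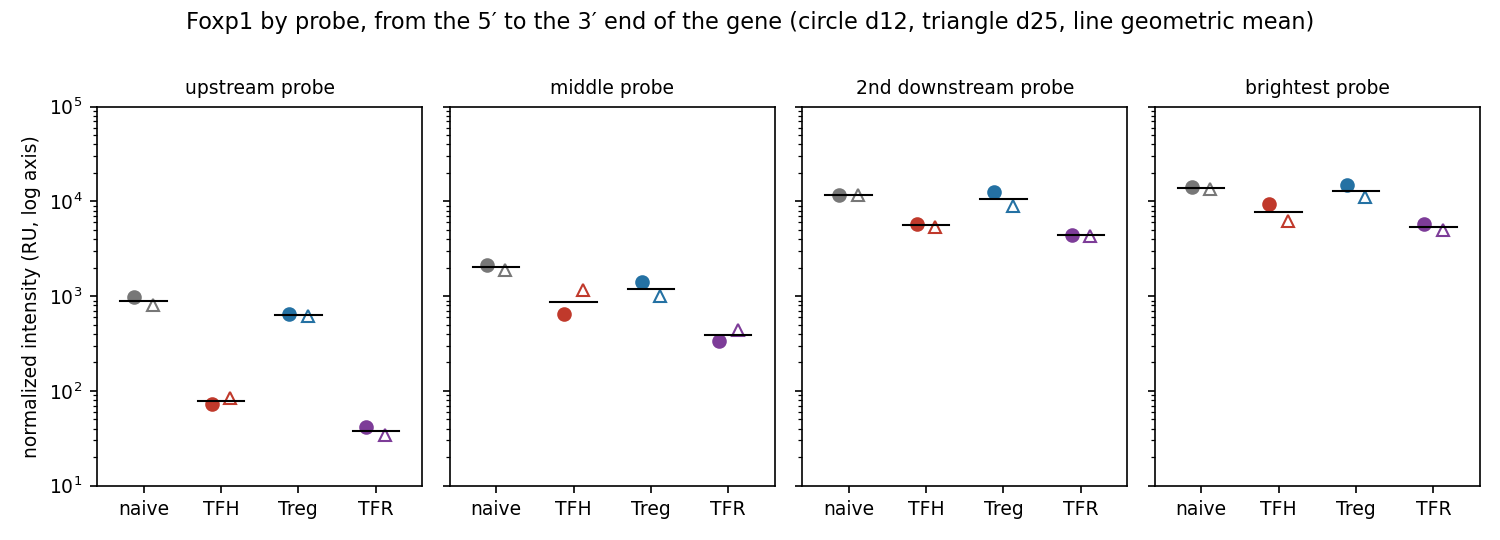
Normalized intensity (RU, log axis) of 4 Foxp1 probes from the 5′ to the 3′ end of the gene in the 4 cell types, with a circle for d12, a triangle for d25, and a line for the geometric mean. Levels of different probes are not comparable, but the step from naïve to TFH cells was 11.3-fold at the upstream probe and 1.79-fold at the brightest probe.

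Ets1 was at 59533 and 72983 RU in naïve, 58510 and 76009 in Treg, 42452 and 57317 in TFH, and 34030 and 44069 in TFR cells. Naïve and Treg cells overlapped, as did TFH and TFR cells, whereas both follicular cell types lay below naïve and Treg cells. Ets1 fell by 0.42 ± 0.083 in TFH (1.34-fold, adjusted p = 0.0143) and fell by 0.78 ± 0.083 in TFR cells (1.72-fold, adjusted p = 0.00341). The fall in TFH cells was not called without the d12 TFH array or either naïve array (adjusted p between 0.0504 and 0.0951), nor without the term for day (adjusted p = 0.22). The fall in TFR cells was not called without that term either (adjusted p = 0.0561). The second probe (chromosome 9, 32561826 to 32561885, plus strand) changed by -0.65 ± 0.11 and -0.82 ± 0.11. TFR and TFH cells differed by -0.35 ± 0.083 (adjusted p = 0.0439), a call lost when any 1 of the 8 arrays was left out (-0.39 to -0.31). That call was also lost with the mean of all probes, without the term for day, and with slide as a block (adjusted p = 0.0761, 0.4, and 0.158).

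Myb moved in the opposite direction. It was at 1894 and 1853 RU in naïve, 1816 and 2210 in Treg, 6999 and 7271 in TFH, and 6694 and 6868 in TFR cells. Follicular and other cells were separated by a wide gap, naïve and Treg cells overlapped, and TFR cells lay just below TFH cells. Myb rose by 1.93 ± 0.11 in TFH (3.81-fold, adjusted p = 0.000379) and by 1.76 ± 0.11 in TFR cells (3.38-fold, adjusted p = 0.000968). TFR and TFH cells differed by -0.073 ± 0.11 (adjusted p = 0.666), with a 95% confidence interval from -0.35 to 0.21. Its paralog Mybl2 (B-MYB), which acts in dividing cells, was at 323 and 235 RU in naïve, 433 and 379 in Treg, 1573 and 1229 in TFH, and 3684 and 2695 in TFR cells. It rose by 2.34 ± 0.10 (adjusted p = 0.000228) and 2.96 ± 0.10 (adjusted p = 0.000371). Proliferation genes moved in the same direction. Of 7 tested, 6 rose in each comparison (Cdk1 passed the filter only through TFH and TFR cells), and their summed intensity was 1506 to 1889 RU in naïve, 3260 to 3516 in Treg, 7540 to 10176 in TFH, and 19953 to 22497 in TFR cells. The part of proliferation in the Myb result was not tested.

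Between both Foxp3+ and both Foxp3- cell types, fewer factors differed. Tcf7, Lef1, and Ets1 were called lower in TFR than in TFH cells (3 of 8, against 22.1% of all genes, 10.5% lower and 11.6% higher), and Tcf7 and Lef1 lower in Treg than in naïve cells (2 of 8, against 9.88%, 3.98% lower and 5.89% higher). In TFR versus TFH cells, Satb1 differed by -1.07 ± 0.44 (adjusted p = 0.151), Foxo1 by 0.38 ± 0.12, Foxo3 by 0.032 ± 0.16 (adjusted p = 0.911), and Foxp1 by -0.50 ± 0.15 (adjusted p = 0.0799). The remaining factors of Treg versus naïve cells did not pass the test either. Satb1 differed by -0.86 ± 0.44 (adjusted p = 0.289), Foxo1 by -0.15 ± 0.12 (adjusted p = 0.497), Foxo3 by 0.47 ± 0.16 (adjusted p = 0.152), Foxp1 by -0.099 ± 0.15 (adjusted p = 0.733), Ets1 by 0.017 ± 0.083 (adjusted p = 0.93), and Myb by 0.10 ± 0.11 (adjusted p = 0.625). In the comparisons across both axes, 7 of 8 factors were called in TFR versus naïve cells (53.1% of all genes, 29.8% lower and 23.4% higher) with Foxo3 as the exception, and 8 of 8 in Treg versus TFH cells (39.8%, 21% higher and 18.8% lower). These comparisons share arrays with those above. At d25 the Foxp3+ and Foxp3- arrays lay on different slides, which cannot be told apart from Foxp3 status at that day.

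The follicular change was compared between the lineages as TFR minus Treg against TFH minus naïve. None of the 8 factors was called by limma (8.49% of all genes were, 4.03% higher and 4.46% lower), although 4 had an unadjusted p below 0.05. The changes differed by -0.42 ± 0.13 for Tcf7 (adjusted p = 0.136), 0.60 ± 0.15 for Lef1 (adjusted p = 0.0867), 0.53 ± 0.17 for Foxo1 (adjusted p = 0.141), and -0.37 ± 0.12 for Ets1 (adjusted p = 0.141). The sign of each was the same at both days.

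The change from d12 to d25 was shared with the slide and cannot be told apart from it. Of the 8 factors none was called by limma (0.0698% of all genes were, 0.019% higher and 0.0508% lower), and 5 had an unadjusted p below 0.05. Ets1 was higher at d25 in all 4 cell types, by 0.29 in naïve, 0.43 in TFH, 0.38 in Treg, and 0.37 in TFR cells, with a mean of 0.37 ± 0.059 (adjusted p = 0.0694). Ets1 was called with normexp, with genes above background on all arrays, and with a variance trend (adjusted p = 0.0398, 0.0392, and 0.0259), and the last also called Tcf7 (0.23, adjusted p = 0.0472). Tcf7 (0.16 to 0.37) and the dim Foxo3 (0.15 to 0.75) were higher at d25 in all 4 cell types as well. Lef1 (-0.50 to -0.20) and Foxp1 (-0.61 to -0.065) were lower in all 4.

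Other members of these factor families were called in both directions. Of 16 paralogs, 12 were tested, and Foxo6, Foxp2, Erg, and Mybl1 lay near the floor on all arrays. In TFH versus naïve cells 2 paralogs rose and 6 fell, and in TFR versus Treg cells 3 rose and 4 fell, beside 46.5% and 39.6% of all genes called in either direction. Among ETS factors, Ets2 changed by -1.23 ± 0.11 (adjusted p = 0.00135) and -1.04 ± 0.11 (adjusted p = 0.00345), and Fli1 by -0.57 ± 0.082 (adjusted p = 0.00546) and -0.75 ± 0.082 (adjusted p = 0.00368). Elk3 rose by 0.56 ± 0.081 (adjusted p = 0.00539) and 0.35 ± 0.081 (adjusted p = 0.0262). Elf1 fell in TFR cells (-0.47 ± 0.094, adjusted p = 0.0185) but was not called in TFH cells (-0.15 ± 0.094, adjusted p = 0.255), Elf4 fell in TFH cells (-0.90 ± 0.18, adjusted p = 0.0136), and Gabpa was called in neither (0.16 ± 0.15 and -0.18 ± 0.15). Tcf7l2 fell in TFH cells (-1.11 ± 0.17, adjusted p = 0.00608). Tcf7l1, at 20 to 23 RU in naïve and TFH cells, was at 141 and 126 RU in Treg and 56 and 28 RU in TFR cells. It was well above background in Treg cells alone. Its TFR values were raised where they lay below the lowest level of any probe well above background on that array. It was then 2.77-fold higher in Treg than in TFR cells. Since it passed the filter only through Treg cells, its call (adjusted p = 0.00792 in the fit) is not independent of that filter. The same holds for its place among the 4 paralogs that fell in TFR cells. Foxo4 fell in TFH cells (-1.56 ± 0.27, adjusted p = 0.00933), where it was at 67 and 53 RU against 215 and 142 RU in naïve cells. Foxp4 rose in TFR cells (0.56 ± 0.13, adjusted p = 0.0254). Foxp3, the factor of Treg cells, was lower in TFH than in naïve cells (66 and 83 against 358 and 285 RU, -2.11 ± 0.17, adjusted p = 0.001) and differed by -0.39 ± 0.17 in TFR versus Treg cells (adjusted p = 0.133).

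Genes known as targets of FOXO factors moved in both directions. Of 21 tested, 5 rose and 10 fell in TFH cells, and 4 rose and 9 fell in TFR cells, beside 46.5% and 39.6% of all genes called in either direction. The medians were -0.45 and -0.45 (all genes -0.072 and -0.077). The largest falls in TFH cells were those of the homing receptor Ccr7 (-4.81 ± 0.20, adjusted p = 0.000211) and the IL7 receptor chain Il7r (-4.73 ± 0.29, adjusted p = 5e-04). In TFR cells, S1pr1 (-3.20 ± 0.19, adjusted p = 0.000837), which guides egress from lymph nodes, and the survival factor Bcl2 (-2.50 ± 0.18, adjusted p = 0.00135) fell most among the genes reported. The largest rises were those of the pseudokinase Trib1 (4.58 ± 0.21, adjusted p = 0.00025, in TFH cells and 1.419 ± 0.211, adjusted p = 0.00798, in TFR cells) and of Bcl6 (3.94 ± 0.15 and 2.40 ± 0.15, adjusted p = 0.000184 and 0.00104), the repressor that defines TFH cells and is known to be restrained by Foxo1. The list contains Tcf7 itself, and the study had named Klf2, Ccr7, S1pr1, and Bcl6 from these arrays, so that the direction of the list is not independent evidence.

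**Figure D5:**
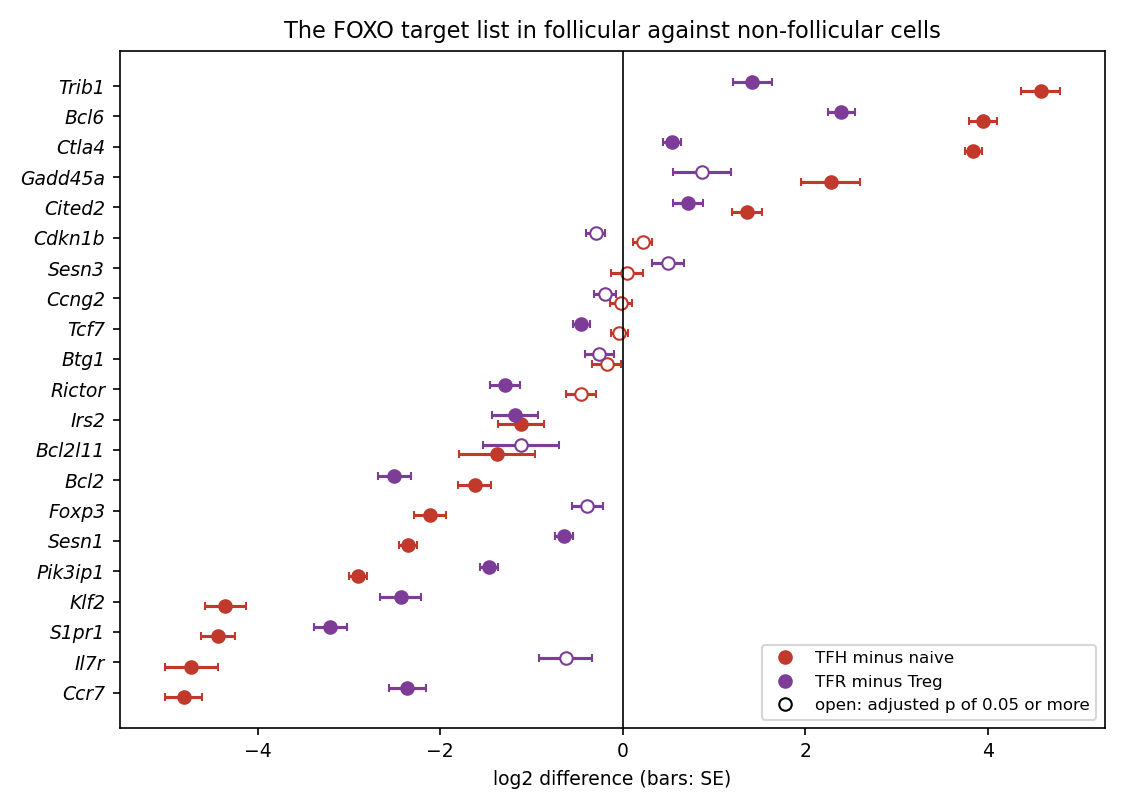
Log2 difference of TFH minus naïve cells (red) and of TFR minus Treg cells (violet) for the 21 tested genes of the FOXO target list, with SE from limma and open circles where the adjusted p was 0.05 or more. Ccr7, Il7r, S1pr1, and Klf2 lay lowest in TFH cells and Trib1 and Bcl6 highest.

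Upstream of FOXO proteins, 4 of 18 kinases, phosphatases, and their subunits rose and 5 fell in TFH cells, and 2 rose and 6 fell in TFR cells, shares near the 46.5% and 39.6% of all genes called. Pik3r5, a regulatory subunit of PI3Kγ, changed by -3.63 ± 0.14 (adjusted p = 0.000188) and -2.39 ± 0.14 (adjusted p = 0.000915). Sgk1, a kinase that phosphorylates FOXO proteins, fell in TFH cells (-2.85 ± 0.31, adjusted p = 0.00235) and was not called in TFR cells (-0.43 ± 0.31, adjusted p = 0.314). Pik3cd, the catalytic subunit of PI3Kδ, fell in both lineages (-0.96 ± 0.096 and -1.23 ± 0.096, adjusted p = 0.00184 and 0.00169). Phlpp1 and Phlpp2, phosphatases of AKT, rose in TFH cells (1.52 ± 0.13 and 1.16 ± 0.15, adjusted p = 0.00111 and 0.00353) and in TFR cells (1.07 ± 0.13 and 0.74 ± 0.15, adjusted p = 0.00458 and 0.0168). The median of the list was -0.17 and -0.18, respectively.

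Of 18 tested partners of TCF/LEF factors and genes of the Wnt pathway, 4 rose and 5 fell in TFH cells, beside 46.5% of all genes called. Bcl9, among those that fell, passed the filter only through naïve cells. In TFR cells 0 rose and 4 fell, beside 39.6% of all genes. The difference between both counts was not tested. The median was -0.11 and -0.0080. The ligand Wnt10a was at 390 and 479 RU in naïve and 2395 and 6691 RU in TFH cells (3.21 ± 0.33, adjusted p = 0.00196). Apc, a scaffold of the complex that degrades β-catenin, was at 364 and 339 RU in TFH and 71 and 67 RU in naïve cells (d12 and d25). In naïve cells it was not well above background, so that the measured 5.09-fold difference is uncertain (adjusted p = 0.000621 in the fit). The corepressor Tle1 fell in both lineages (-2.32 ± 0.26 and -2.04 ± 0.26, adjusted p = 0.00252 and 0.00525). So did the β-catenin cofactor Bcl9l (-1.19 ± 0.20 and -0.72 ± 0.20, adjusted p = 0.00879 and 0.0441) and the scaffold Axin1 (-0.69 ± 0.090 and -0.76 ± 0.090, adjusted p = 0.00394 and 0.00448).

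Of 22 other quiescence factors tested, 4 rose and 9 fell in TFH cells, and 2 rose and 14 fell in TFR cells, beside 25.6% and 20.9% of all genes that fell in these comparisons and 20.9% and 18.7% that rose. The medians were -0.27 and -0.80 (all genes -0.072 and -0.077). Klf2, which drives homing receptors in resting T cells, changed by -4.35 ± 0.22 (adjusted p = 0.000305) and -2.43 ± 0.22 (adjusted p = 0.00245). Tsc22d3 (GILZ) changed by -3.73 ± 0.091 (adjusted p = 8.39e-05) and -2.26 ± 0.091 (adjusted p = 0.000479). Gfi1 (2.03 ± 0.12, adjusted p = 0.000425) and Id3 (0.99 ± 0.16, adjusted p = 0.00761) rose in TFH cells and were not called in TFR cells (adjusted p = 0.106 and 0.151). Klf4, which was well above background on 1 of 2 Treg arrays, rose in both lineages (0.86 ± 0.21 and 2.58 ± 0.21, adjusted p = 0.0263 and 0.00187). The mRNA decay factor Zfp36l1 rose in both as well (0.69 ± 0.11 and 0.82 ± 0.11, adjusted p = 0.0068 and 0.00554). Klf2 and Btg1 are also in the FOXO target list. The study had named Klf2, Tsc22d3, and Bach2 from these arrays, so that the direction of this list is not independent evidence either.

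The genes closest to the other factors in pattern over the 8 arrays were found by the root mean square difference of centered log2 values. Ikzf1 (IKAROS, 0.14), Epb4.1 (0.15), and Gtf2i (0.18) were closest to Tcf7. Ikzf1 was at 15842 and 18004 RU in naïve, 13358 and 15550 in TFH, 8701 and 9174 in Treg, and 5565 and 5289 in TFR cells, so that it shared the low levels of Tcf7 in Foxp3+ cells. Usp2 (0.25), 5830419E12Rik (0.30), and Ifitm10 (0.31) were closest to Lef1, and Trmt61a (0.10), Trmt1 (0.11), and Gm3219 (0.11) to Foxo1. For Foxo3 they were H2-Bl (0.12), the unnamed probe A_55_P2084158 (0.12), and Eif4g2 (0.13). Foxp1 was closest to 9930012K11Rik (0.15), Klf7 (0.16), and TC1748693 (0.16), and Ets1 to Fubp1 (0.053), Tmem68 (0.058), and Nfx1 (0.062). Myb was closest to the glycolytic enzyme Tpi1 (0.088), Fuca2 (0.14), and D930020B18Rik (0.17). Tpi1 was at 15160 and 14199 RU in naïve, 16219 and 17816 in Treg, 64629 and 63304 in TFH, and 53365 and 55903 in TFR cells.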

How the data were processed

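mRNA of the 4 sorted cell types was measured on 8 one-color arrays with 4 spots per probe. The labels give 25 ng of total RNA per array. The authors extracted spot intensities (gProcessedSignal) with Agilent Feature Extraction 10.7.3.1 and deposited these intensities together with a table of normalized intensities. Following the authors' description, flagged spots, outlier spots by the authors' multiple of the interquartile range, and spots with a pixel coefficient of variation above 0.5 were left out, the rest was averaged by the geometric mean, quantile normalized, scaled to a 75th percentile of 1500, set to at least 20, and converted to log2. Of the spots, 86.5% to 89.2% were kept. The result correlated with the deposited intensities at a Pearson r of 0.9994 on each array. A gene is represented by its probe of highest mean log2 value, other probes serve as a check. Quantile normalization sets all arrays to 1 distribution and so hides any change that all genes share.

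A gene was tested if both arrays of 1 or more cell types showed its probe well above background. The fit used limma 3.58.1 (lmFit and eBayes, R 4.3.3) with additive terms for the cell type and the day, with 3 residual degrees of freedom and 1.89 added by the prior. The scripts were tested on simulated data. The number of arrays limits the precision. Groups follow the source names of the labels, and day pairs the arrays of a comparison, which is why it is a term of the fit. At d12 all arrays shared a slide. The test of the study's methods needs replicates of a cell type within a day, and the numbers of sorts given there differ from the 8 arrays. PP cells were not analysed here.

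The 8 factors, the gene lists, and the tests were chosen with earlier results of these data known. Named are all 8 factors, all tested paralogs, of each other list the 2 genes with the largest rises and falls among those called in TFH versus naïve and in TFR versus Treg cells, and the 3 genes closest in pattern to each factor with a log2 range of at least 1. Values of cell type markers are given as sums, with single values for some of them. Some genes of the lists are not reported here and were left out of their counts. The fit of probe pairs was added after the values had been seen. Probe positions are those of the files (NCBI37), and what the annotation places there was not analysed for lack of that build's gene models in the sources used here. Sequences are from RefSeq (GRCm38.p6) and, for probes, from the files. Alternatives were scaling without quantile normalization, normexp, all spots, the authors' table, other filters, the mean of all probes, a floor of 1, no term for day, slide as a fixed or random block, a variance trend, and leaving out each array.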

Additional observations from a re-analysis of the deposited data

How the results depend on the processing

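Each of the 64 differences of the 8 factors was recomputed under 20 alternatives (18 for d25 versus d12). Of 34 calls between cell types, 21 were kept in every alternative and 0 changed direction. The number of factors called in TFR versus naïve cells was 7 throughout, and that in TFH versus naïve cells was 4 to 7. In TFR versus Treg cells it was 5 without the replicate block, that is without the term for day that pairs the arrays, and 5 to 8 when 1 array was left out. In TFR versus TFH cells it was 1 without the block for day, 1 with slide as a fixed block, 5 with a variance trend, and 1 to 2 with 1 array left out. In Treg versus naïve cells it was 1 with slide as a fixed block and 1 to 2 with 1 array left out. In Treg versus TFH cells it was 5 without the filter on dim probes, without the block for day, or with slide as a block, and 4 to 8 with 1 array left out. For the difference between lineages it was 2 with a variance trend and 1 with normexp, and for d25 versus d12 it was 2 with a trend, 1 with normexp, and 1 with genes above background on all arrays. With 1 array left out, the remaining array of a cell type is assumed to vary like the others. The log2 range over the arrays was 1.72 for Tcf7 and 1.67 for Foxo1 with scaling alone, and 3.63 for Lef1, 1.40 for Foxo1, 1.06 for Ets1, and 1.89 for Myb in the authors' table. Only differences that were not called changed sign. With 1 array left out, Tcf7 in TFH versus naïve cells was -0.13 to 0.051, and Foxo3 in TFR versus TFH cells was -0.051 to 0.12. In Treg versus naïve cells, Foxo1 was then -0.30 to 0.011, Foxp1 -0.27 to 0.072, Ets1 -0.034 to 0.067, and Myb -0.035 to 0.23, and Satb1 in the difference between lineages was -0.90 to 0.48. Foxo3 in TFR versus TFH cells was -0.17 with slide as a block, Ets1 in Treg versus naïve cells was -0.12 with scaling alone and -0.053 for the mean of probes, and Foxo1 between the days was 0.0059 for the mean of probes. The cause of these changes was not tested. Counts of all genes called fell from 7332 to 4310 in TFH versus naïve, from 6249 to 2498 in TFR versus Treg, from 3488 to 942 in TFR versus TFH, and from 1557 to 416 in Treg versus naïve cells in the lowest case with 1 array left out. Foxo3 and the upstream Foxp1 probe lie near background, so that their folds are the least certain.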
